A study of Mus musculus with 6 samples.

Results

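The genes described here are 10 alpha and beta tubulin genes of the mouse, chosen by name from the table of the series: Tuba1a, Tuba1b, Tuba1c and Tuba4a of the alpha family, and Tubb2a, Tubb2b, Tubb3, Tubb4a, Tubb5 and Tubb6 of the beta family. Of these 10 genes, 9 are listed among the 17027 gene symbols of the table given here, and all 9 passed the filter on low values (a mean of at least 1 FPKM over the 6 libraries). Tubb3 is not analysed here, so every share of beta tubulin below is a share of the other beta tubulins. Tuba8 and Tubb4b, the other alpha and beta tubulin genes listed, enter the family totals and are named where a result turns on them.

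The libraries hold polyA-selected RNA of retinal ganglion cells (RGCs), the neurons whose axons form the optic nerve, from wild-type mice of the strain labelled C57/6NCrl. There are 2 libraries from each of 3 ages: embryonic day 18 (E18), postnatal day 5 (P5) and adult mice of 8 weeks (Adult). Cells were caught on antibody to the surface protein Thy1 after antibodies had removed macrophages, and the sample protocol also names the removal of amacrine cells, which are other neurons of the retina. The libraries of P5 share 1 column header and are called a and b. No label ties a library to an animal, so the spread behind each p-value is that between libraries and may be technical.

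Microtubules are hollow polymers of alpha and beta tubulin heterodimers, and axons depend on them for growth, calibre and transport. Each tubulin family is encoded by several genes, whose products (isotypes) are much alike over most of their length and differ most in the acidic tail at the carboxyl end, where enzymes add and remove a tyrosine and side chains of glutamate. In the brain, Tuba1a, Tubb2b, Tubb3 and Tubb5 are known for high levels in young neurons, and variants of each in humans cause malformations of cortical development, while TUBA4A and TUBB4A in humans are linked to motor neuron disease and to disorders of myelin.

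The tails of the coding sequences show how the members differ at the site of the tyrosine cycle. Below are the last 57 bases of the coding sequence of 2 alpha and 4 beta tubulin genes, each written 5′ to 3′ on the strand of the gene and taken from GENCODE M21 transcripts (GRCm38), with the last sense codon in capitals and the stop codon after it.
Tuba1c: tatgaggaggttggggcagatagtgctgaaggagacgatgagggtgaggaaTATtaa
Tuba4a: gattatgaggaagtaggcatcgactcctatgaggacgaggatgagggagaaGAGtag
Tubb2a: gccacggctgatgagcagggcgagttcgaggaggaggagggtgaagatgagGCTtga
Tubb2b: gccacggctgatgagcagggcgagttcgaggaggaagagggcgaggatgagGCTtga
Tubb4a: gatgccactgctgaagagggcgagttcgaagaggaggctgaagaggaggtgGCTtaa
Tubb5: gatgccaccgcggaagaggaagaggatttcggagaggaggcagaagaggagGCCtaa

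Tuba1c ends in TAT, a tyrosine codon, and Tuba4a ends in GAG, a codon of glutamate, and so has no tyrosine codon as its last sense codon. The beta tubulins shown end in an alanine codon. Tuba8, which is no member, ends in TTT, a codon of phenylalanine. Coding sequences of Tubb2a and Tubb2b were 96.49% identical (47 differing or gapped bases of 1338).

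Likeness between members bears on how reads can be told apart. Of the 100-base stretches of each transcript, the length of 1 read, 65.8% of Tuba1a, 73.0% of Tuba1b and 53.4% of Tuba1c also occurred in another annotated gene. The share was 36.9% for Tubb2a, 27.7% for Tubb2b and 0.0% for Tubb4a, Tubb5 and Tubb6. The values of Tuba1a, Tuba1b and Tuba1c, and of Tubb2a and Tubb2b, are therefore uncertain to the extent that reads were divided between them, which was not measured. Tuba4a shared 27.0% of the stretches of its highest isoform with Stk16, a kinase gene on the opposite strand that overlaps its 3′ end. For its isoform of 2840 bases the share was 46.7%. Whether counting used the strand is not given in the sources used here.

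In GRCm38, Tuba1a (chromosome 15, 98949837 to 98953703, minus strand), Tuba1b (chromosome 15, 98931425 to 98934565, minus strand) and Tuba1c (chromosome 15, 99029891 to 99038110, plus strand) lie in 1 cluster. Tubb2a (chromosome 13, 34074274 to 34078007) and Tubb2b (chromosome 13, 34126748 to 34130466) lie side by side on the minus strand. Tuba4a is on chromosome 1 (75214228 to 75219865), Tubb4a (57080066 to 57087782) and Tubb5 (35833921 to 35838306) are on chromosome 17, all on the minus strand, and Tubb6 is on chromosome 18.

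The libraries differ by more than age, and these values stand beside every result on Adult. All 16 RGC markers were listed, and their summed level was 4786 and 5430 at E18, 5148 and 4709 at P5, and 585 and 405 FPKM in Adult. Thy1 alone had 161 and 241 at E18, 391 and 369 at P5, and 138 and 129 FPKM in Adult. All 12 rod photoreceptor markers were listed and summed to 6.35 and 5.78 at E18, 12.1 and 9.77 at P5, and in Adult to 6078 FPKM in replicate 1 and 741 FPKM in replicate 2. Up to 3 of the 12, among them Pde6a and Cnga1, were at 0 in each younger library and none in Adult. Amacrine markers (10 of 10 listed) summed to 867 to 900.4 FPKM at E18, 1111 to 1212 FPKM at P5 and 1700.0 to 2064 FPKM in Adult, and Müller glia markers (9 of 9) to 195 to 230 FPKM, 173 to 186 FPKM and 1364 to 1634 FPKM. In the libraries of E18, cell cycle genes summed to 157 FPKM in replicate 1 and 77.6 FPKM in replicate 2, and progenitor markers to 129 and 18.7 FPKM. In bulk samples, fewer RGCs and less RNA per RGC cannot be told apart, and the part that other cells have in the results was not tested. The plot of marker and tubulin sums shows these values by library.

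**Figure D1:**
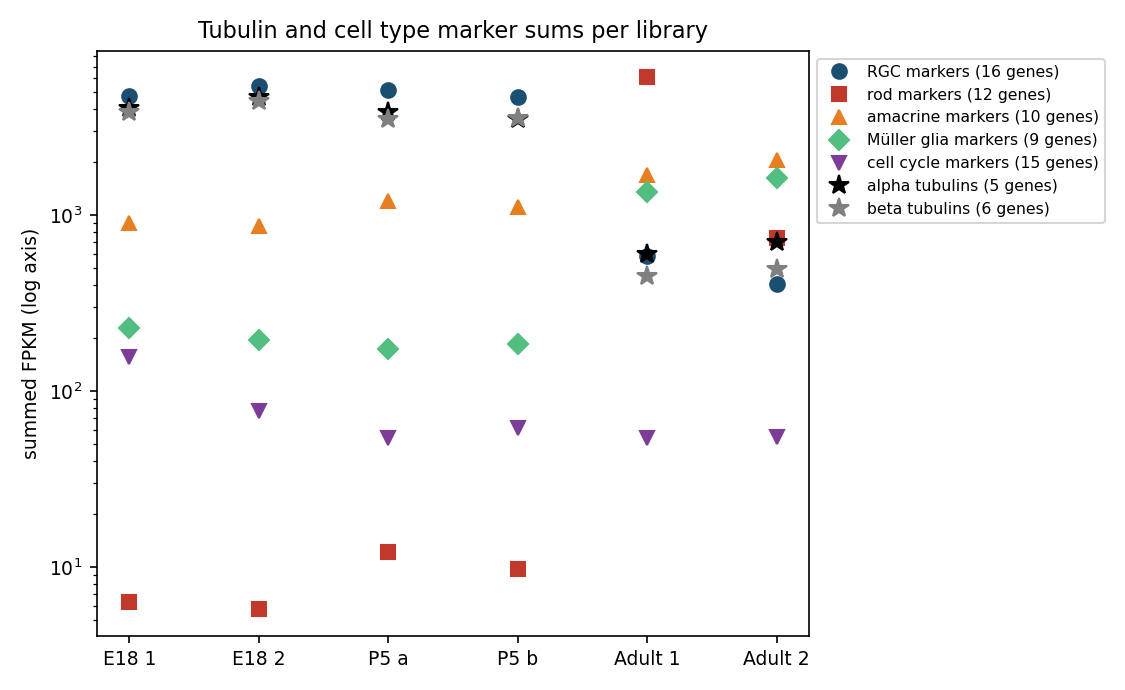
Summed FPKM (log axis) of markers of RGCs, rods, amacrine cells, Müller glia and the cell cycle, and of the alpha and beta tubulin genes, in each of the 6 libraries. The RGC markers lie at 405 and 585 FPKM in the Adult libraries, against 4709 to 5430 FPKM in the younger ones, and the alpha and beta sums are lower in the same 2 libraries.

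Alpha tubulin RNA of the libraries was nearly all Tuba1a at E18 and P5, and the FPKM of Tuba1a was far lower in Adult. Tuba1a, the main alpha tubulin of growing neurons, had 3951 and 4535 at E18, 3654 and 3369 at P5, and 376 and 444 FPKM in Adult. Both Adult libraries lay below all 4 younger libraries, and Tuba1a ranked between 7 and 9 by level among the 14390 tested genes in each younger library, and 86 and 85 in Adult. In Adult it was 8.57-fold lower than at P5 (log2 change -3.10, SE 0.14, limma adjusted p = 3.38e-05) and 10.4-fold lower than at E18 (log2 change -3.37, SE 0.14, limma adjusted p = 2.11e-05). At P5 it was not called against E18 (log2 change -0.27, interval -0.60 to 0.06, limma adjusted p = 0.241). A log2 change here is a difference of log2(FPKM + 1), each fold change is a ratio of means, and called means a Benjamini-Hochberg adjusted p under 0.05 over all tested genes.

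Tuba4a, an alpha tubulin known from mature neurons and muscle, moved the other way. It had 5.75 and 6.24 at E18, 38.4 and 33.1 at P5, and 64.8 and 64.1 FPKM in Adult. The 3 ages did not overlap, and each was above the one before. Tuba4a was 5.96-fold higher at P5 than at E18 (log2 change 2.39, SE 0.12, limma adjusted p = 0.00201), a change that ranked 23 from the highest of 14390 genes. In Adult it was 1.80-fold higher than at P5 (log2 change 0.84, SE 0.12, limma adjusted p = 0.00138) and 10.7-fold higher than at E18 (log2 change 3.23, SE 0.12, limma adjusted p = 1.53e-05). The rise between P5 and E18 was called without each library in turn, and the one between Adult and P5 was lost when FPKM were rescaled to TPM (log2 change 0.10, adjusted p = 0.473). Stk16, the overlapping gene, had 43.8 and 47.0 at E18, 42.8 and 34.5 at P5, and 38.8 and 31.8 FPKM in Adult, and was called in no comparison.

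Tuba1b, a widely expressed alpha tubulin, stayed near 1 level in the younger ages. It had 106 and 119 at E18, 124 and 95.5 at P5, and 144 and 177 FPKM in Adult, so that the younger ages overlapped and both Adult libraries lay above them. In Adult it was called higher than at P5 (log2 change 0.55, SE 0.16, limma adjusted p = 0.0276) and than at E18 (log2 change 0.50, SE 0.16, limma adjusted p = 0.0385), but with TPM these changes were -0.20 and -0.12. Against P5 the call was lost without E18 replicate 1, E18 replicate 2, P5 library b or Adult replicate 2 (adjusted p = 0.0508, 0.0506, 0.129 and 0.146). Against E18 it was lost without E18 replicate 1, E18 replicate 2 or Adult replicate 2 (adjusted p = 0.177, 0.0869 and 0.190).

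Tuba1c, another member of the chromosome 15 cluster, had 17.0 and 17.8 at E18, 38.5 and 15.6 at P5, and 11.7 and 12.4 FPKM in Adult. The P5 libraries lay on both sides of E18, and the Adult libraries lay below all others. No comparison was called (log2 change 0.48 for P5 over E18, -0.98 for Adult over P5 and -0.50 for Adult over E18; limma adjusted p = 0.436, 0.0595 and 0.278). Without P5 library b, the P5 over E18 change was 1.10 (adjusted p = 0.0383) and the Adult over P5 change was -1.60 (adjusted p = 0.00219), and without P5 library a the P5 over E18 change was -0.15. The Adult over E18 change of -0.50 was called without P5 library a (adjusted p = 0.0108) or P5 library b (adjusted p = 0.00961). With TPM Tuba1c was called lower in Adult than at P5 (-1.72, adjusted p = 0.00552) and at E18 (-1.10, adjusted p = 0.0333), and with a filter at a mean of 10 FPKM it was called lower than at P5 (-0.98, adjusted p = 0.0407). With only the 2 ages compared, the Adult over E18 change of -0.50 was called (adjusted p = 0.0115). Tuba8 had 0.888 and 0.790 at E18, 1.08 and 0.815 at P5, and 7.83 and 9.74 FPKM in Adult, and was called higher in Adult than at P5 (log2 change 2.32, limma adjusted p = 0.000167) and E18 (log2 change 2.41, limma adjusted p = 0.000123).

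**Figure D2:**
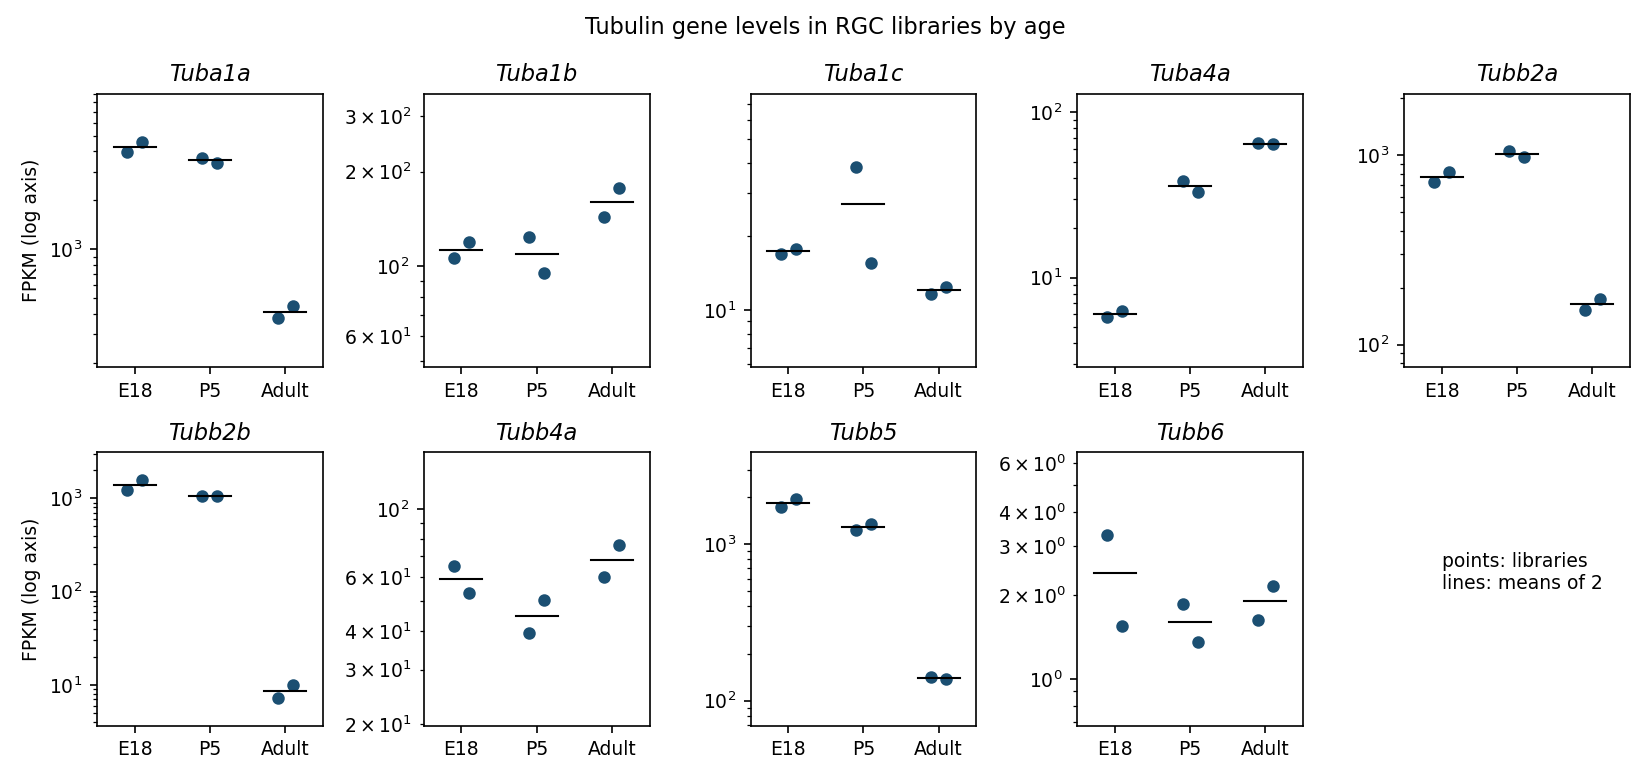
FPKM (log axes, each with its own range) of the 9 listed members in the libraries of E18, P5 and Adult, with points for libraries and lines for the means of 2. Tuba1a, Tubb2a, Tubb2b and Tubb5 lie lower in Adult than at both younger ages, and Tuba4a is higher at each age than at the one before.

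Among the beta tubulins, Tubb2b was lower in Adult by far more than its neighbour and close copy Tubb2a. Tubb2b, needed for neuronal migration and axon guidance in the brain, had 1244 and 1573 at E18, 1053 and 1073 at P5, and 7.31 and 9.96 FPKM in Adult. Both Adult libraries lay far below all 4 younger libraries, with a mean 123-fold below P5 (log2 change -6.80, SE 0.17, limma adjusted p = 9.65e-06) and 163-fold below E18 (log2 change -7.20, SE 0.17, limma adjusted p = 6.90e-06). By level it ranked 8587 and 7183 of the 14390 tested genes in the Adult libraries, against 23 to 30 in the younger ones. Both changes ranked 4 from the lowest of the 14390 tested genes. At P5, Tubb2b was not called against E18 (log2 change -0.40, interval -0.81 to 0.02, limma adjusted p = 0.185).

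Tubb2a, a neuronal beta tubulin, had 721 and 820 at E18, 1059 and 983 at P5, and 152 and 175 FPKM in Adult. Both P5 libraries lay above both E18 libraries, and the Adult libraries lay below all others. In Adult it was 6.25-fold lower than at P5 (log2 change -2.64, SE 0.12, limma adjusted p = 3.86e-05) and 4.72-fold lower than at E18 (log2 change -2.23, SE 0.12, limma adjusted p = 4.37e-05). The P5 over E18 change of 0.41 (interval 0.12 to 0.70) was not called (limma adjusted p = 0.083), but was with TPM (0.54, adjusted p = 0.0192) and with quantile normalization (0.89, adjusted p = 0.0124).

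Tubb5, a widely expressed beta tubulin that is abundant in the developing brain, had the highest level of the beta tubulins listed at E18 and P5. It had 1737 and 1941 at E18, 1232 and 1336 at P5, and 142 and 139 FPKM in Adult, with no overlap between ages. In Adult it was 9.14-fold lower than at P5 (log2 change -3.18, SE 0.11, limma adjusted p = 1.84e-05) and 13.1-fold lower than at E18 (log2 change -3.70, SE 0.11, limma adjusted p = 8.76e-06). At P5 it was 1.43-fold lower than at E18 (log2 change -0.52, SE 0.11, limma adjusted p = 0.0344). That last call was lost without any 1 of the libraries, with adjusted p of 0.174 and 0.190 without E18 replicates 1 and 2, 0.147 and 0.0759 without P5 libraries a and b, and 0.0716 and 0.0714 without Adult replicates 1 and 2.

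Tubb4a, known from mature neurons and oligodendrocytes, had 65.3 and 53.3 at E18, 39.4 and 50.4 at P5, and 59.8 and 76.5 FPKM in Adult. The Adult libraries lay above those of P5 and overlapped those of E18. It was called higher in Adult than at P5 (log2 change 0.59, SE 0.18, limma adjusted p = 0.0313), a change of -0.15 with TPM, and the call was lost without P5 library a or Adult replicate 2 (adjusted p = 0.159 and 0.167). The 4 of 7 oligodendrocyte markers listed summed to 24.0 and 24.3 at E18, 17.9 and 18.9 at P5, and 11.8 and 13.5 FPKM in Adult. Tubb6, a beta tubulin of muscle and other tissues, was low throughout, with 3.29 and 1.55 at E18, 1.85 and 1.36 at P5, and 1.63 and 2.17 FPKM in Adult, and its ages overlapped.

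Over the 9 listed members, 1 was called higher (Tuba4a) and 1 lower (Tubb5) at P5 than at E18, where 10.5% of all tested genes were called (5.52% higher and 4.95% lower; 29.4% had an unadjusted p under 0.05). In Adult against P5, 3 were called higher (Tuba1b, Tuba4a and Tubb4a) and 4 lower (Tuba1a, Tubb2a, Tubb2b and Tubb5), where 59.8% of genes were called (26.2% higher and 33.7% lower). In Adult against E18, 2 were called higher (Tuba1b and Tuba4a) and 4 lower, again Tuba1a, Tubb2a, Tubb2b and Tubb5, where 59.7% of genes were called (25.3% higher and 34.4% lower). The count of members in each Adult comparison is therefore close to that of genes at large, and the size of the changes is where the members lie at the edge: Tuba1a, Tubb2b and Tubb5 were within the lowest 1.02% of all changes in both. With TPM the split was 2 higher and 0 lower for P5 over E18, 0 and 5 for Adult over P5, and 1 and 5 for Adult over E18. With quantile normalization it was 2 and 0 for P5 over E18. Of all 14390 genes, 1945, 10312 and 10185 were called with TPM in the 3 comparisons, and 1294 with quantile normalization for P5 over E18. The median log2 change of all genes was -0.03, -0.07 and -0.11 in the 3 comparisons as deposited, and 0.08, -0.76 and -0.68 with TPM. The comparisons share libraries and are not independent.

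**Figure D3:**
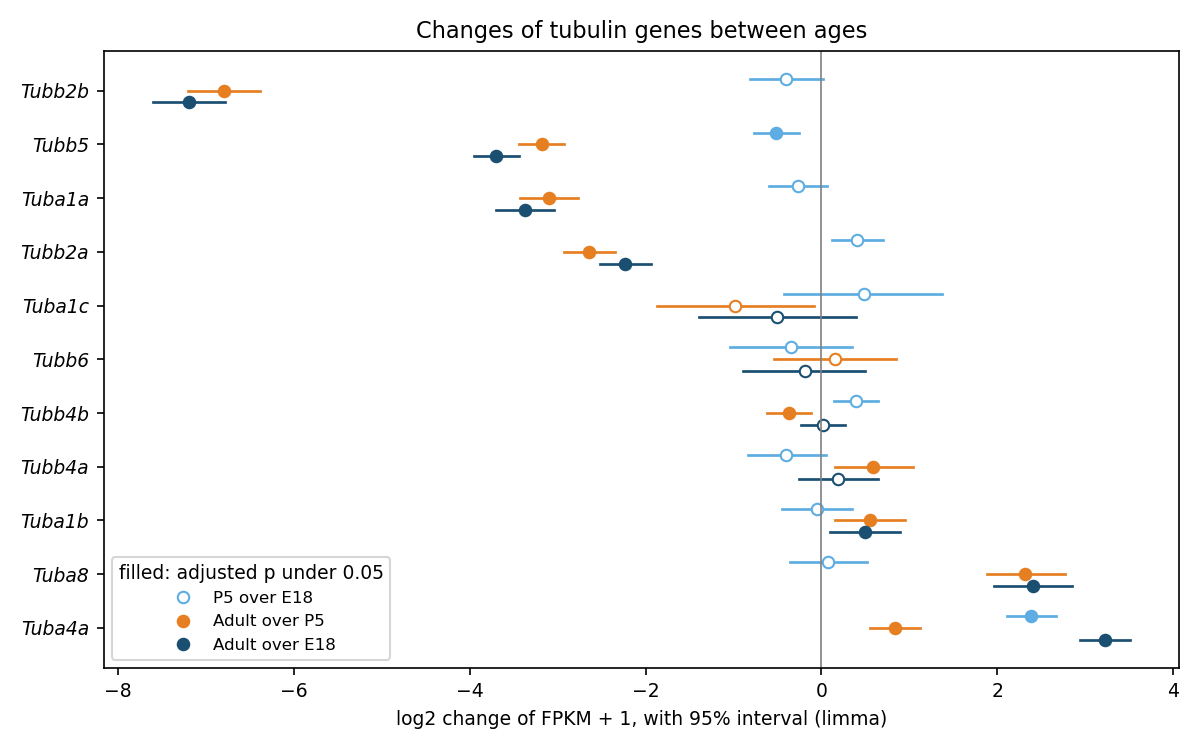
Log2 change of FPKM + 1 with its 95% interval for 11 tubulin genes, for P5 over E18, Adult over P5 and Adult over E18; filled points have a limma adjusted p under 0.05. The Adult changes run from -7.20 for Tubb2b to 3.23 for Tuba4a.

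FPKM are per length, so the order of levels can be read within an age. At E18 the order was Tuba1a, Tubb5, Tubb2b, Tubb2a, Tuba1b, Tubb4a, Tuba1c, Tuba4a and Tubb6, and no neighbours overlapped. At P5 the libraries of Tubb2a and Tubb2b overlapped, and so did those of Tuba4a and Tuba1c. In Adult the order began with Tuba1a, then Tubb2a and Tuba1b, which overlapped, then Tubb5, then Tubb4a and Tuba4a, which overlapped, then Tuba1c, Tubb2b and Tubb6. Tuba4a lay below Tuba1c at E18 and above it in Adult, and Tubb2b lay above Tubb2a at E18 and below it in Adult.

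Shares of the families differed between ages, and the larger step was not the same for all members. A share is a percent of the summed FPKM of all listed genes of the family in 1 library and does not depend on how a library was scaled. With 2 libraries per age no exact permutation test between 2 ages can give a p below 0.333, so shares are given as a description, as mean ± SD of 2 libraries. Tuba1a held 96.9 ± 0.0762% of alpha tubulin at E18, 95.3 ± 0.779% at P5 and 62.5 ± 0.378% in Adult. Tuba1b held 2.58 ± 0.0426% at E18, 2.96 ± 0.344% at P5 and 24.4 ± 0.873% in Adult. Tuba4a held 0.137 ± 0.00532% at E18, 0.969 ± 0.0393% at P5 and 9.89 ± 1.18% in Adult. For Tuba4a the share was thus higher at P5 already, while Tuba1a still held 94.8% and 95.9% in the P5 libraries.

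Tuba1c held 0.399 ± 0.0248% at E18, 0.721 ± 0.392% at P5 and 1.84 ± 0.125% in Adult, and Tuba8 held 1.34 ± 0.0567% in Adult. When only isoforms annotated as protein-coding were counted, an alternative chosen after the data were seen, Adult shares were 68.9% for Tuba1a, 19.6% for Tuba1b, 9.76% for Tuba4a and 0.266% for Tuba1c. The share of Tuba1c in Adult then lay below its 0.398% at E18.

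In the beta family, Tubb5 held 44.2 ± 1.21% at E18, 36.4 ± 1.77% at P5 and 29.8 ± 2.26% in Adult, without Tubb3. Tubb2b held 33.7 ± 2.02% at E18, 30.1 ± 0.139% at P5 and 1.82 ± 0.294% in Adult. Tubb2a held 18.5 ± 0.268% at E18, 28.9 ± 1.77% at P5 and 34.5 ± 1.43% in Adult, so its share was higher in Adult although its level was lower. For Tubb5 and Tubb2a the difference in share between P5 and E18 was larger than that between Adult and P5, and for Tubb2b it was smaller. For Tubb5 the differences were close beside the SDs, so their order is not resolved. For Tubb2a the order turned with only members in the denominator, with 18.9% at E18, 29.9% at P5 and 42.7% in Adult.

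Tubb4a held 1.44 ± 0.356% at E18, 1.27 ± 0.208% at P5 and 14.4 ± 1.69% in Adult. Tubb4b, a widely expressed beta tubulin that is no member, held 2.15 ± 0.154% at E18, 3.32 ± 0.338% at P5 and 19.1 ± 1.21% in Adult. The levels of Tubb4b were 86.9 and 91.2 at E18, 125 and 109 at P5, and 90.7 and 89.8 FPKM in Adult, so its larger share in Adult came with the lower total of the family. Tubb6 held at most 0.441% in any library.

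**Figure D4:**
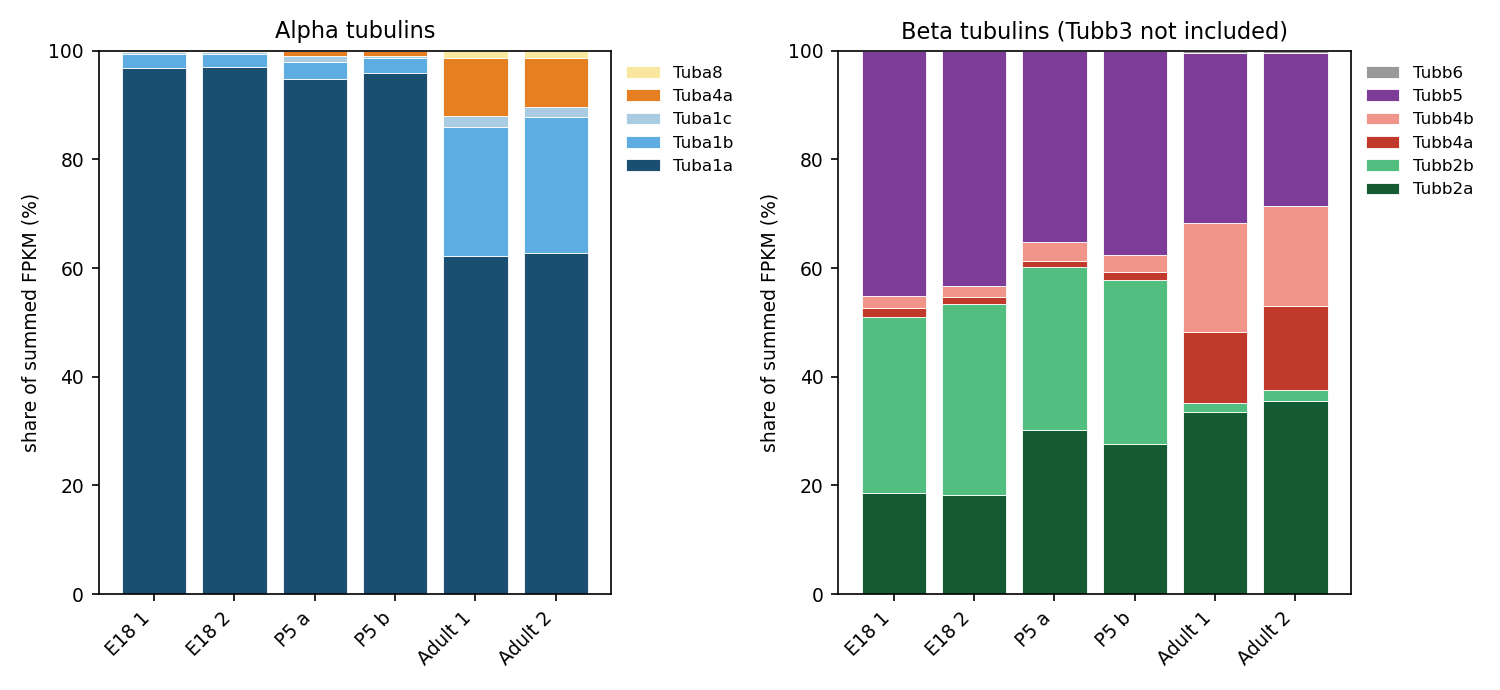
Share of each gene in the summed FPKM of the listed alpha tubulins (left) and beta tubulins without Tubb3 (right), in percent, 1 bar per library. Tuba1a fills 94.8% to 96.9% of the alpha bars at E18 and P5 and 62.2% to 62.8% in Adult, and Tubb2b fills 30.0% to 35.1% of the beta bars at E18 and P5 and 1.61% to 2.03% in Adult.

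The totals of both families were lower in Adult. Alpha tubulins summed to 4380 ± 423 FPKM at E18, 3685 ± 241 FPKM at P5 and 656 ± 73.2 FPKM in Adult, and beta tubulins without Tubb3 to 4168 ± 440 FPKM at E18, 3532 ± 30.6 FPKM at P5 and 473 ± 26.6 FPKM in Adult (SD, n = 2 each). The mean at E18 was 6.68 times that of Adult for alpha and 8.81 times for beta. The ratio of these alpha to beta sums was 1.06 and 1.04 in the E18 libraries, 1.10 and 0.989 at P5, and 1.33 and 1.44 in Adult. As Tubb3 is left out, neither its level nor its direction with age can be read as that of all alpha to all beta tubulin.

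Set against the RGC markers of the same library, the members did not all keep the differences seen in FPKM. Per 1000 FPKM of summed RGC markers, Tuba1a had 826 and 835 at E18, 709.7 and 716 at P5, and 643 and 1095 FPKM in Adult, so the Adult libraries lay on both sides of the younger ones. Tubb5 had 363 and 357 at E18, 239 and 284 at P5, and 244 and 342 FPKM in Adult. Tubb2b had 260 and 290 at E18, 205 and 228 at P5, and 12.5 and 24.6 FPKM in Adult, and so lay lower in Adult on this scale also.

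Tubb2a turned on this scale, with 151 and 151 at E18, 206 and 209 at P5, and 260 and 431 FPKM in Adult, so that it lay higher in Adult than at both younger ages, while its FPKM was lower. The turn depends on which markers are summed. Thy1, the marker the cells were caught on, had log2 changes of -0.56 for Adult over E18 and -1.51 for Adult over P5. Those of Tubb2a were -2.23 and -2.64, and those of Tuba1a -3.37 and -3.10. Against Thy1 alone, Tubb2a and Tuba1a thus lay lower in Adult than at both younger ages. Tuba1b had 20.3 to 24.0 in the 4 younger libraries, and 246 and 437 FPKM in Adult. Tubb4a had 7.66 to 13.6 in the younger libraries, and 102.3 and 189 FPKM in Adult. On the scale of summed RGC markers, Tuba1c and Tubb6 likewise lay higher in both Adult libraries than in all 4 younger ones. Against Thy1 alone this is not resolved for Adult over E18. The log2 changes were -0.50 for Tuba1c (interval -1.39 to 0.39) and -0.19 for Tubb6 (-0.89 to 0.50), beside -0.56 for Thy1. A retained-intron isoform made up 88.4% and 85.3% of the FPKM of Tuba1c in Adult.

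Per 1000 FPKM of summed RGC markers, Tuba4a had 1.20 and 1.15 at E18, 7.46 and 7.02 at P5, and 111 and 158 FPKM in Adult. At P5 and E18, the ages of the first difference of Tuba4a, RGC marker sums overlapped. Rod marker sums did not, with 6.35 and 5.78 FPKM at E18 and 12.1 and 9.77 FPKM at P5. Between these ages 0 rod markers were called (median log2 change -0.01), where 10.5% of all genes were. Amacrine sums were higher at P5 as given above, with 0 of these markers called (median log2 change -0.08). The median marker level per library was 0.0767 to 0.239 FPKM for rods and 0.627 to 4.46 FPKM for amacrine cells. Many of these markers thus lay too near 0 for a change of log2(FPKM + 1) to show, and the counts decide nothing about these cells. Progenitor markers summed to 15.8 and 16.2 FPKM at P5 against 129 and 18.7 FPKM at E18. Bipolar cell markers summed to 134 and 148 FPKM at P5 against 258 and 254 FPKM at E18. The bipolar list holds Isl1, also an RGC marker, which alone had 115 and 136 FPKM at P5 and 238 and 245 FPKM at E18. Most of the bipolar difference is thus that of Isl1. Astrocyte sums were also higher at P5, and Müller glia, oligodendrocyte, cone and cell cycle sums lower, without overlap. The part of these cells in the difference was not tested. The RGC markers changed with age themselves: in Adult against E18 their median log2 change was -3.52, from -5.32 for Gap43, a growth cone protein, to 1.52 for Nefh, the heavy neurofilament subunit. Of the 16, 15 were called lower and 1 higher in that comparison, where 34.4% of all genes were called lower and 25.3% higher.

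The table lists 20 isoforms of the members, of which 18 had a mean of at least 1 FPKM and were tested. At P5 against E18, 3 were called higher and 0 lower by limma, where 1.63% of the 34941 tested isoforms were called (0.804% higher and 0.824% lower). All 3 belonged to Tuba4a. At an unadjusted p under 0.05 the members' isoforms numbered 7 higher and 2 lower, where 21.9% of all isoforms passed. Of its isoforms, the one of 2083 bases had the highest level, with 3.61 and 2.72 at E18, 23.4 and 15.3 at P5, and 37.3 and 36.6 FPKM in Adult, with no overlap between ages (log2 change 2.27 for P5 over E18, limma adjusted p = 0.0264; 0.93 for Adult over P5, limma adjusted p = 0.0205). The isoform of 2840 bases had 0.731 and 0.986 at E18, 4.48 and 4.24 at P5, and 9.06 and 10.9 FPKM in Adult, and was called in the same direction (1.53 and 1.03, limma adjusted p = 0.0334 and 0.00654). In Adult against P5, 2 isoforms were called higher and 8 lower (43.3% of all isoforms called, 19.2% higher and 24.1% lower), and against E18, 4 higher, all of Tuba4a, and 7 lower (44.7% called, 17.9% higher and 26.8% lower).

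For Tuba1c the isoforms went apart. Its protein-coding isoform of 1982 bases had 16.9 and 17.7 at E18, 17.7 and 15.3 at P5, and 1.35 and 1.83 FPKM in Adult. The Adult libraries lay far below the others, and the isoform was called lower in Adult than at P5 (log2 change -2.76, SE 0.16, limma adjusted p = 0.000277) and at E18 (log2 change -2.83, SE 0.16, limma adjusted p = 0.000218). A retained-intron isoform of 781 bases had 0.103 and 0.0879 at E18, 20.8 and 0.284 at P5, and 10.3 and 10.6 FPKM in Adult, and was called in no comparison. It made up 88.4% and 85.3% of the FPKM of Tuba1c in Adult, and 53.9% in P5 library a but 1.82% in P5 library b. The gene-level value of Tuba1c in Adult and in P5 library a therefore rests mostly on that isoform.

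Tuba1b also had a retained-intron isoform, of 526 bases, with 27.7 FPKM in E18 replicate 1, 22.7 FPKM in P5 library b, and 27.0 and 62.1 FPKM in Adult, and it was listed at 0 in E18 replicate 2 and P5 library a. Its protein-coding isoform had 78.7 and 119 at E18, 124 and 72.9 at P5, and 117 and 115 FPKM in Adult, and these overlapped. The protein-coding isoform alone was not called (log2 change 0.29 for Adult over P5 and 0.26 for Adult over E18, limma adjusted p = 0.466 and 0.506). The isoform plot shows these values.

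**Figure D5:**
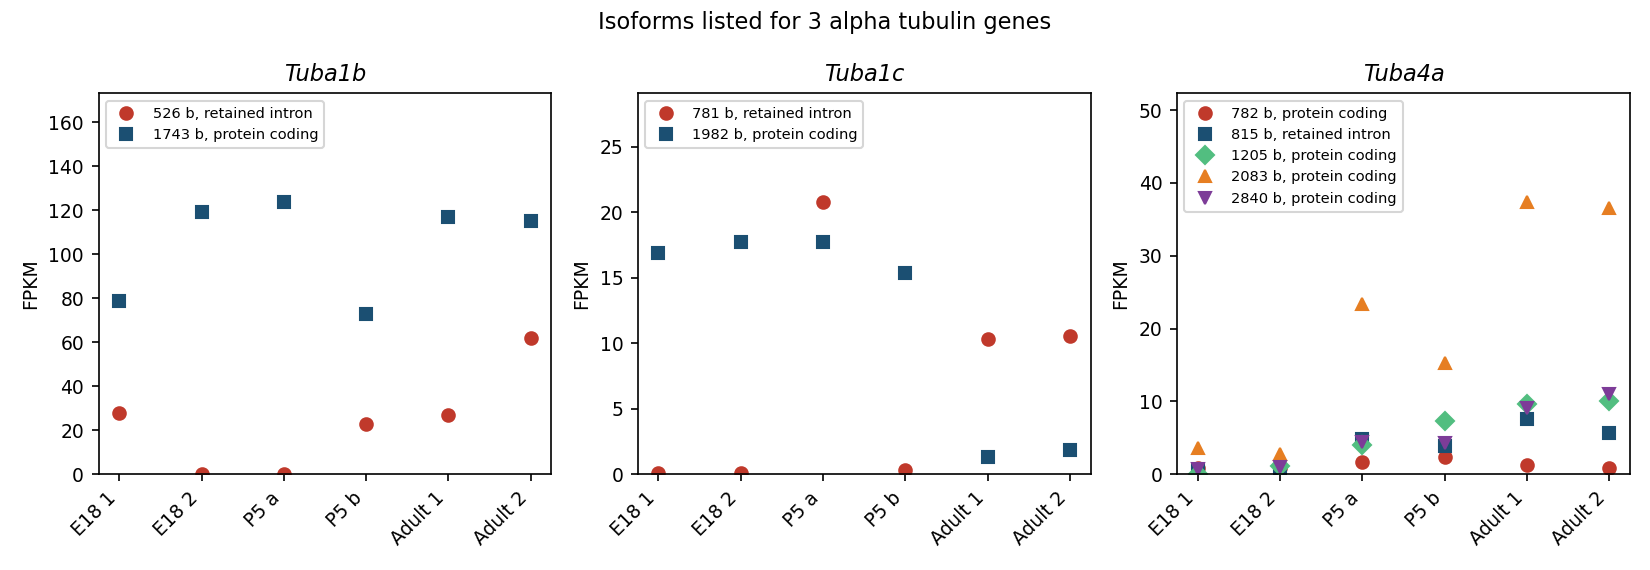
FPKM of each listed isoform of Tuba1b, Tuba1c and Tuba4a in the 6 libraries; isoforms are named by length in bases and by annotated type. The protein-coding isoform of Tuba1c lies at 1.35 and 1.83 FPKM in Adult, where its retained-intron isoform lies at 10.3 and 10.6 FPKM.

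Newly made tubulin is folded by the chaperonin, a ring of Cct subunits that receives it from prefoldin, and is joined into dimers by the cofactors Tbca to Tbce. Of 18 genes listed for chaperonin and prefoldin, among them Pdcl, Pdcl3 and Txndc9, which are subunits of neither, 17 were tested. In Adult against P5 all 17 were called lower (median log2 change -0.88, against -0.07 for all genes), where 33.7% of all genes were. In Adult against E18 16 were (median -1.07, against -0.11), with Vbp1 at -0.26 the other one, where 34.4% of all genes were. At P5 against E18 limma called 0 (median 0.04), where 10.5% of all genes were called. At an unadjusted p under 0.05 they numbered 2 lower and 0 higher, where 29.4% of all genes passed. Cct2 had 152 and 165 at E18, 136 and 138 at P5, and 55.9 and 51.3 FPKM in Adult (log2 change -1.34 for Adult over P5, limma adjusted p = 0.000134). Pfdn5, a prefoldin subunit, had 109.6 and 112 at E18, 125 and 113 at P5, and 44.6 and 47.5 FPKM in Adult (-1.35, limma adjusted p = 0.000134). In Adult against P5 the 17 were called lower with TPM also, 14 with protein-coding scaling and 15 with quantile normalization. Of all 14390 genes, 10312, 8629 and 8329 were then called in either direction.

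Of the 7 cofactor genes, 2 were called higher and 3 lower in Adult against P5 (median -0.20) and likewise 2 and 3 against E18 (median -0.18), where 59.8% and 59.7% of all genes were called, so that 5 of 7 is near the share of genes at large. The 3 lower ones were Tbca, Tbcb and Tbcd in both, with Tbca at 131 and 143 at E18, 169 and 139 at P5, and 37.1 and 40.1 FPKM in Adult. The higher ones, named after their values were seen, were Tbcc (0.44) and Tbcel (1.10) against P5, and Tbcel (1.08) and Arl2 (0.41) against E18. With TPM 1 was higher and 5 lower in both, where 10312 and 10185 of all 14390 genes were called. With protein-coding scaling 3 were higher and 3 lower in both, where 8629 and 8719 genes were called. The median was then positive (0.12 and 0.18).

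Of 31 genes of enzymes that modify tubulin, 23 were tested. In Adult 3 were called higher and 13 lower against P5 (median -0.70; 26.2% and 33.7% of all genes), and 3 and 12 against E18 (median -0.53; 25.3% and 34.4% of all genes). With TPM these were 1 and 19, and 1 and 15, where 10312 and 10185 of all 14390 genes were called. With protein-coding scaling they were 5 and 11, and 5 and 10, where 8629 and 8719 genes were called. Atat1, which acetylates alpha tubulin, had 47.0 and 45.3 at E18, 30.0 and 30.5 at P5, and 7.55 and 7.17 FPKM in Adult, with no overlap between ages. It was lower at P5 than at E18 (log2 change -0.60, SE 0.10, limma adjusted p = 0.0231) and lower in Adult than at P5 (log2 change -1.90, SE 0.10, limma adjusted p = 5.57e-05). At P5 against E18, 2 others were called, both higher: Agbl3, which shortens glutamate chains (0.77, limma adjusted p = 0.0314), and, named after its value was seen, Ttll13, of the tyrosine ligase-like family (1.28, limma adjusted p = 0.0346). At an unadjusted p under 0.05 there were 2 higher and 7 lower of the 23 tested. Of all genes, 10.5% were called at P5 against E18 and 29.4% had an unadjusted p under 0.05.

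Among the modifying enzymes are genes that remove and restore the tyrosine at the end of alpha tubulin. Svbp, the partner of the vasohibins that remove the tyrosine, had 46.9 and 49.3 at E18, 32.4 and 35.0 at P5, and 4.67 and 5.64 FPKM in Adult (log2 change -2.50 for Adult over P5, SE 0.12, limma adjusted p = 4.72e-05). Vash1 and Vash2, the vasohibins, and Ttl, the ligase that puts the tyrosine back, were named after their values were seen. Vash1 had 37.1 and 39.1 at E18, 23.6 and 34.9 at P5, and 7.46 and 5.41 FPKM in Adult. Ttl had 21.3 and 24.8 at E18, 26.0 and 31.8 at P5, and 4.89 and 4.85 FPKM in Adult. The changes for Adult over P5 were -2.01 for Vash1, -2.22 for Vash2 and -2.34 for Ttl (limma adjusted p = 0.000498, 0.000178 and 8.11e-05). In the same Adult libraries the RGC marker sums were lower and the rod, amacrine and Müller glia sums higher, and their part in these results was not tested.

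The list of gamma tubulin holds the gamma tubulins and the ring complex, which seed microtubules, with augmin, delta and epsilon tubulin and other partners. Of 20 tested of 21, 5 were called higher and 7 lower in Adult against P5 (median -0.19; 26.2% and 33.7% of all genes), and 3 and 7 against E18 (median -0.27; 25.3% and 34.4% of all genes), which is near the share of genes at large. With TPM these were 0 and 14, and 1 and 14, where 10312 and 10185 of all 14390 genes were called. With protein-coding scaling they were 8 and 5, and 7 and 6, where 8629 and 8719 genes were called. Haus7, a subunit of augmin, which branches microtubules, had 15.3 and 18.03 at E18, 15.5 and 15.2 at P5, and 3.52 and 4.01 FPKM in Adult (log2 change -1.78 for Adult over P5, limma adjusted p = 0.000149). At P5 against E18 limma called 0 of the 7 cofactor genes and 0 of the 20 genes of the gamma tubulin list, where 10.5% of all genes were called. At an unadjusted p under 0.05, where 29.4% of all genes passed, there were 1 cofactor gene and, of the gamma tubulin list, Tubgcp6 and Cdk5rap2. All were lower, and both of the second list were named after their values were seen.

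The genes whose profiles over the 6 libraries lay nearest to each member were found by Euclidean distance between log2(FPKM + 1) values centred on each gene's mean, among 7370 genes with a mean of at least 10 FPKM. Nearest to Tuba4a were Slc4a10, a bicarbonate transporter (distance 0.460), Glrb, a glycine receptor subunit (0.714), and Atp1b1, a sodium pump subunit (0.761). Slc4a10 had 5.19 and 5.62 at E18, 26.6 and 21.2 at P5, and 47.0 and 51.4 FPKM in Adult.

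Nearest to Tubb2b were Cd24a, a surface protein of young neurons (0.905), Islr2 (1.01) and Mstn (1.07). The other members had nearer genes, such as Dstn, an actin-severing protein, for Tubb2a (0.166), the pseudogene Tpt1-ps3 for Tuba1a (0.183), and Scn9a, a sodium channel, for Tubb5 (0.142). Scn9a had 25.9 and 30.7 at E18, 19.2 and 19.9 at P5, and 1.17 and 1.05 FPKM in Adult. The distances describe these 6 libraries only.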

How the data were processed

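RNA of RGCs was measured in 6 libraries, 2 at each of E18, P5 and Adult. The authors deposited isoform FPKM. Reads were mapped with HISAT2 to mm10 and abundances came from Cufflinks and Cuffdiff, per the submitters' processing notes, with versions and any scaling between libraries not given in the sources used here. A value of 0.0001 stands in place of 0. Isoform length, a further deposited column, was used only for the alternative shares. A further 10 numeric columns were not used here. FPKM carry no counts, so depth is unknown and precision rests on 2 libraries per age.

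Isoform FPKM were summed per gene symbol. The limma package (3.58.1, R 4.3.3) fitted log2(FPKM + 1) (all 6 libraries, age as the factor, variance trend), for genes with a mean of at least 1 FPKM, and adjusted by Benjamini-Hochberg, two-sided. The fit was tested on simulated data. Alternatives were the pseudocount, filter, scaling (TPM, protein-coding, quantile), variance trend, ages fitted, each library left out, and a replicate block. Named genes are the members, the other alpha and beta tubulins listed, the 2 called genes of smallest p per list and comparison, and the 3 nearest profiles per member; others are marked as named after their values were seen, apart from those named beside a count or as markers. Members and lists were chosen with earlier results of these data known. Positions, transcript types and coding sequences came from GENCODE M21 (GRCm38). The sequences of some members are not reported here.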

Additional observations from a re-analysis of the deposited data

How the results depend on the processing

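Of 15 calls of members, 10 kept their direction and side of the threshold in every alternative that was run: those of Tuba1a, Tubb2a, Tubb2b and Tubb5 in both Adult comparisons, and those of Tuba4a for P5 over E18 and Adult over E18. In the P5 over E18 comparison, members called lower numbered 1 as deposited, and 0 with TPM, with quantile normalization, without the variance trend and with only the 2 ages compared. Those called higher numbered 1 as deposited and 2 with TPM and quantile normalization, where 1945 and 1294 of all 14390 genes were called. Those called in all numbered 2, against 1 without the variance trend or with only the 2 ages compared. Leaving out 1 library gave between 1 and 2 called, 0 lower, and between 1 and 2 higher. In Adult over P5, members called higher numbered 3, against 0 with TPM and between 1 and 3 with 1 library left out. In Adult over E18 they numbered 2, against 1 with TPM, 1 without the variance trend, and between 1 and 2 with 1 library left out. With 1 library left out, all genes called for P5 over E18 numbered between 10 and 642, against 1507 with all libraries, and 696 with only the 2 ages compared. A filter at a mean of 10 FPKM left 7604 genes tested, of which 5014 and 5098 were called in the Adult comparisons over P5 and E18, against 8610 and 8588. A lone library left in an age is assumed to vary like the other ages. With TPM, changes turned for Tuba1b (0.08 for P5 over E18, -0.20 for Adult over P5 and -0.12 for Adult over E18), Tubb4a (-0.15 for Adult over P5 and -0.42 for Adult over E18) and Tubb6 (-0.37 for Adult over P5). Tubb6 also turned with quantile normalization (-0.10 for Adult over P5) and protein-coding scaling (0.05 for Adult over E18). With 1 library left out, the changes for P5 over E18 ranged from -0.24 to 0.13 for Tuba1b, -0.15 to 1.10 for Tuba1c and -0.73 to 0.03 for Tubb6, and that of Tubb6 for Adult over E18 from -0.57 to 0.18. The cause of these differences was not tested. Replicate numbers are shared by E18 and Adult, but no label pairs these libraries. The difference between replicates 1 and 2 at E18 and in Adult correlated across genes by 0.0183. That value cannot decide whether libraries of 1 number were prepared together, as marker sums also differed between replicates. With the replicate block, 7 members were called for Adult over E18, 5 lower and 2 higher, with Tuba1c added (-0.50, adjusted p = 0.0264). Adult shares with only members in the denominator were 63.3% for Tuba1a, 42.7% for Tubb2a, 2.25% for Tubb2b, 17.8% for Tubb4a, 36.9% for Tubb5 and 0.494% for Tubb6. By FPKM times isoform length they were 65.95% for Tuba1a, 20.2% for Tuba1b, 1.01% for Tuba1c, 27.9% for Tubb2a, 16.1% for Tubb4a and 38.5% for Tubb5. With protein-coding isoforms only, chosen after the data were seen, they were 68.9% for Tuba1a, 19.6% for Tuba1b and 0.266% for Tuba1c. In single libraries the Adult shares ranged from 62.2% to 62.8% for Tuba1a, 23.8% to 25.1% for Tuba1b and 28.2% to 31.4% for Tubb5.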
